A study of Mus musculus with 73 samples.

Results

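The 8 genes described here are the chemokine ligands *Cxcl12*, *Cxcl13*, *Cxcl16*, *Ccl25*, *Ccl28*, *Ccl20*, *Cx3cl1* and *Ccl11*, chosen by name as chemokines of gut stroma and epithelium. All 8 were listed in each of 3 tables from mouse jejunum, which held 20882, 21058 and 17399 genes. The first table covers 4 stromal zones cut by laser capture microdissection (LCM), with 6 crypt sections from 3 mice and 8 villus bottom, 7 villus center and 8 villus tip sections from 5 mice. The second covers single cells sorted into 35 plates from 8 mice, in which mesenchymal cells were those with a unique molecular identifier (UMI) count of *Pdgfra* or *Dcn*, epithelial cells those with *Epcam* and immune cells those with *Ptprc*. The LCM and sorted-cell mice were C57BL/6 males of 3 months by the labels, while the study's methods give a younger age. The third covers jejunal epithelium of Lgr5(GFP-ires-DTR/+) males of 4 months, 48 h after diphtheria toxin (DT) in 4 mice and 48 h after saline in 4 control mice, so the controls carry the same allele. The toxin receptor in these mice is driven by the *Lgr5* locus, which is active in villus tip telocytes and also in the stem cells at the crypt base, so both are exposed to the toxin.

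Chemokines are small secreted or membrane-tethered proteins that bind receptors on leukocytes and other cells and steer where these cells go. In the small intestine CCL25 made by enterocytes is known for drawing CCR9-bearing lymphocytes into the epithelium and lamina propria, CCL28 for drawing CCR10-bearing plasma cells to mucosal surfaces, and CCL20 for drawing CCR6-bearing cells to the epithelium over lymphoid follicles. CXCL12 (receptors CXCR4 and ACKR3), CXCL13 (CXCR5) and the eosinophil attractant CCL11 (CCR3) are known as products of stromal cells, while CXCL16 (CXCR6) and CX3CL1 (CX3CR1) are made as membrane-bound proteins that can be shed.

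The RefSeq promoter windows of the genes the results turn on are shown first, as the 250 bases before each annotated start, all on the + strand of GRCm38.p6 and written 5′ to 3′. Capitals mark matches, on either strand, to 6 searched motifs: the box TATAAA, a kappa-B motif, the HNF4 motif CAAAGTCC, the HNF1 motif GTTAAT, the GATA factor motif AGATAA and the CDX motif TTTATNG. The set is shown because it pairs the stromal genes *Cxcl12* and *Cxcl13* with the epithelial genes *Ccl25* and *Ccl20*, and because *Ccl25* has 2 annotated windows.
Cxcl12, chr6:117168285-117168534: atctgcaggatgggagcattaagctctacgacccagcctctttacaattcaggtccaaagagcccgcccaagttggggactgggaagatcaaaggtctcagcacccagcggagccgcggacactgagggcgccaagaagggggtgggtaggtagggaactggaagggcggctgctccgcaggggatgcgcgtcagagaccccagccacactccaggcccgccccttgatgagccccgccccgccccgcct
Cxcl13, chr5:95956689-95956938: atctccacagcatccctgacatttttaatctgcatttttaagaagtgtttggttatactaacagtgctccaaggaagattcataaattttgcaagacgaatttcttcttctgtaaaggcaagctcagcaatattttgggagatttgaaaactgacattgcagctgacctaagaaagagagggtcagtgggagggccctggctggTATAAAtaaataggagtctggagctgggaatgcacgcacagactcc
Ccl25 first window, chr8:4324960-4325209: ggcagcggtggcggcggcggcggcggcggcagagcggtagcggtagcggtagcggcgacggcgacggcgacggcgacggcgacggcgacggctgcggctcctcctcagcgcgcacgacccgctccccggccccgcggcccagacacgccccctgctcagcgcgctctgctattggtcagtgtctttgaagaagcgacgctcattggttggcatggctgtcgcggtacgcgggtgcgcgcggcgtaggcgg
Ccl25 second window, chr8:4349338-4349587: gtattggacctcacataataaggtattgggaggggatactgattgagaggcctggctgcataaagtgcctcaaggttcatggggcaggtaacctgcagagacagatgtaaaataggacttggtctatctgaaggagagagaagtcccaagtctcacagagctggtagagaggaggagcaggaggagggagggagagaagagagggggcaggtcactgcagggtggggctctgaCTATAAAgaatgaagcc
Ccl20, chr1:83116516-83116765: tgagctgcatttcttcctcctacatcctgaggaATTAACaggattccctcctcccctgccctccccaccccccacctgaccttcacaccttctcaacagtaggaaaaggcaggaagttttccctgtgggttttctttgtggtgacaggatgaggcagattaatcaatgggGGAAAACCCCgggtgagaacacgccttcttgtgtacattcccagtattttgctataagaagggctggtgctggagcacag
The windows differed widely in composition. The first *Ccl25* window was 74.8% G or C with 45 CpG dinucleotides and held none of the 6 motifs, whereas the second, which lies within the annotated *Ccl25* gene, was 51.6% G or C with 0 CpG and ended near a TATAAA that overlaps a CDX match on the other strand. The *Cxcl12* window was 64.4% G or C with no motif, and the *Cxcl13* window was 42% G or C with a TATAAA starting 46 bases before the start. *Ccl20* held a kappa-B match 80 bases and an HNF1 match (GTTAAT) 217 bases before its start, both on the reverse strand. Among all 32851 windows of this length, whose median was 52.4% G or C, TATAAA was found in 12.4%, the kappa-B motif in 1.41%, GTTAAT in 6.43% and TTTATNG in 9.81%. A match is a run of letters only, and none of these data measured binding or a start site.

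In the annotation of GRCm38 all 8 are protein-coding genes, with *Cxcl12* at chr6:117168535-117181367, *Cxcl13* at chr5:95956951-95961068, *Cxcl16* at chr11:70453983-70459984 on the − strand, *Ccl25* at chr8:4325210-4360020, *Ccl28* at chr13:119623819-119654359, *Ccl20* at chr1:83116766-83119167, *Cx3cl1* at chr8:94772009-94782427 and *Ccl11* at chr11:82057823-82062955.

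After the study's limits on wells (400 to 8000 UMIs and at least 250 genes) 2347 cells remained, with a median of 1359 UMIs and 560 genes. They divided into 317 mesenchymal cells (median 1030 UMIs), 1187 epithelial cells (2019), 37 immune cells (964), 28 cells of more than 1 class and 778 cells with none of the defining genes (864). The 7 mesenchymal markers, the defining genes included as in the other lists, summed to 3196 UMIs per 100000 in the mesenchymal class and 0.894 in the epithelial class, the 6 epithelial markers to 1679 in the epithelial, 32.6 in the mesenchymal and 183 in the immune class, and the 7 immune markers to 681 in the immune class. Sort gate and class often differed: plates of the PdgfraSinglets gate held 376 epithelial and 223 mesenchymal cells, and those of the CD45Singlets gate 52 epithelial cells and 1 immune cell, so the classes were used in place of the gates. The LCM samples had 5481 to 17306 genes above 0 at an unknown read depth, and the epithelium samples 748458 to 4210158 UMIs. Intervals and limits given below cover counting error only.

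*Cxcl12* and *Ccl11* were the leading chemokines of the mesenchymal cells. Summed per mouse, *Cxcl12* reached 63.9 UMIs per 100000 in mesenchymal cells of mouse A, 86.5 in mouse E and 36.2 in mouse G, and 0 in mouse B, whose 6 cells held only 4490 UMIs. In epithelial cells of 8 mice it lay between 0 and 0.434. Every mesenchymal sum with more than 6 cells was above every epithelial sum, and the mouse B sum was too shallow to show a level below 66.8 (3 UMIs). *Ccl11* behaved alike, at 73.1 in mouse A, 61.8 in mouse E, 33.6 in mouse G and 0 in mouse B, against a single UMI in 1187 epithelial cells. The fitted difference between mesenchymal and epithelial cells was 7.24 on the log2 scale for *Cxcl12* (SE 0.64, adjusted p = 1.59e-27, edgeR quasi-likelihood test with Benjamini-Hochberg adjustment) and 8.62 for *Ccl11* (SE 0.73, adjusted p = 1.98e-30).

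Of the 317 mesenchymal cells, 83 had a *Cxcl12* UMI (26.2%, exact 95% interval 21.4 to 31.4) and 90 a *Ccl11* UMI (28.4%, 23.5 to 33.7). The shares in epithelial cells, at nearly double the depth, were 0.253% and 0.0842%, which serve as the background. With each cell thinned to 400 UMIs the mesenchymal shares were 14.9% and 15.2%. The genes were detected together in 29 cells, against 23.6 if detection were independent, across cells of unequal depth. Most cells with one thus lacked a UMI of the other. Both genes were seen whichever gene had defined the cell: *Cxcl12* in 33.3% of 24 cells with *Pdgfra* alone, 23.8% of 193 with *Dcn* alone and 29% of 100 with both, and *Ccl11* in 37.5%, 31.1% and 21%.

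*Cxcl13*, the CXCR5 ligand, was found in the mesenchymal class and in neither of the other classes, though the 37 immune cells were too few to show its absence. It had 27 UMIs in 13 mesenchymal cells (4.10%) from mice A, E and G, and 0 in the 1187 epithelial cells, an upper limit of 0.253%. Its mesenchymal level of 6.93 UMIs per 100000 was at least 69.7-fold higher than the epithelial level set at 3 UMIs. Of the 13 cells, 9 also held *Cxcl12*, against 3.40 if detection were independent, a number that takes no account of unequal cell depth or of subtype. *Cxcl13* was too sparse for the filter of the main test. A fit without a filter, which called many more genes in all than the main test, gave an adjusted p of 3.14e-11 (edgeR).

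*Ccl25* was the chemokine of the epithelial cells. Its summed level per mouse ranged from 63.8 to 137 UMIs per 100000 with a median of 115 over 8 mice, and 693 of 1187 epithelial cells held it (58.4%, 55.5 to 61.2). In mesenchymal cells it was 2.74 in mouse A, 12.4 (1 UMI) in mouse E, 1.13 in mouse G and 0 in mouse B, so the classes did not overlap. The fitted difference, mesenchymal against epithelial, was −5.94 (SE 0.85, adjusted p = 3.31e-11). *Ccl25* made up 76.5% of all chemokine ligand UMIs in epithelial cells, while *Cxcl12* and *Ccl11* made up 34.7% and 34.9% of those in mesenchymal cells.

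*Cx3cl1*, the membrane-tethered ligand of CX3CR1, followed the same division at a lower level. It ranged from 4.12 to 34.2 UMIs per 100000 with a median of 5.54 over the epithelial sums, the highest resting on 3 UMIs in mouse D, and 1 UMI was counted in all mesenchymal cells. The difference was −4.92 (SE 1.03, adjusted p = 8.07e-06). *Ccl28* and *Ccl20* were each found in 33 epithelial cells (2.78%) and 0 of 317 mesenchymal cells, an upper limit of 0.946%. Their epithelial levels, 1.49 and 1.33 UMIs per 100000, were at least 1.94-fold and 1.72-fold higher than a mesenchymal level of 3 UMIs. Without a filter on low counts both were called (adjusted p = 0.0098 and 0.0254, edgeR). That fit called many more genes in all than the main test, and at so few UMIs its calls are less certain. Epithelial *Ccl20* came from 4 mice, and lay highest in mice A (22 UMIs) and G (16 UMIs), at 1.80 and 2.32 UMIs per 100000.

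*Cxcl16* was the member found in both compartments. It was at 13.7, 12.4 and 5.66 UMIs per 100000 in mesenchymal cells of mice A, E and G and 0 in mouse B, and between 0 and 5.63 in epithelial cells with a median of 1.14. The share of cells was near equal, at 6.31% and 7.08%, at unequal depths. The fitted difference of 1.22 (SE 0.60) missed the threshold in the main test (adjusted p = 0.0711). It passed without TMM scaling (adjusted p = 0.0074), with cells down to 200 UMIs and 100 genes kept (0.0175) and with cells of more than 1 class put in each (0.0464). It missed in the 6 fits without 1 mouse in which it was tested (0.0619 to 0.261, edgeR). Over 14 alternatives the adjusted p was 0.0074 to 0.437. Of the 5 members that passed the filter on low counts, 2 were called higher and 2 lower in mesenchymal than in epithelial cells at an adjusted p under 0.05, where 57.7% of all 4381 genes tested were called, 27.7% higher and 30.1% lower, with a median difference of −0.17.

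**Figure D1:**
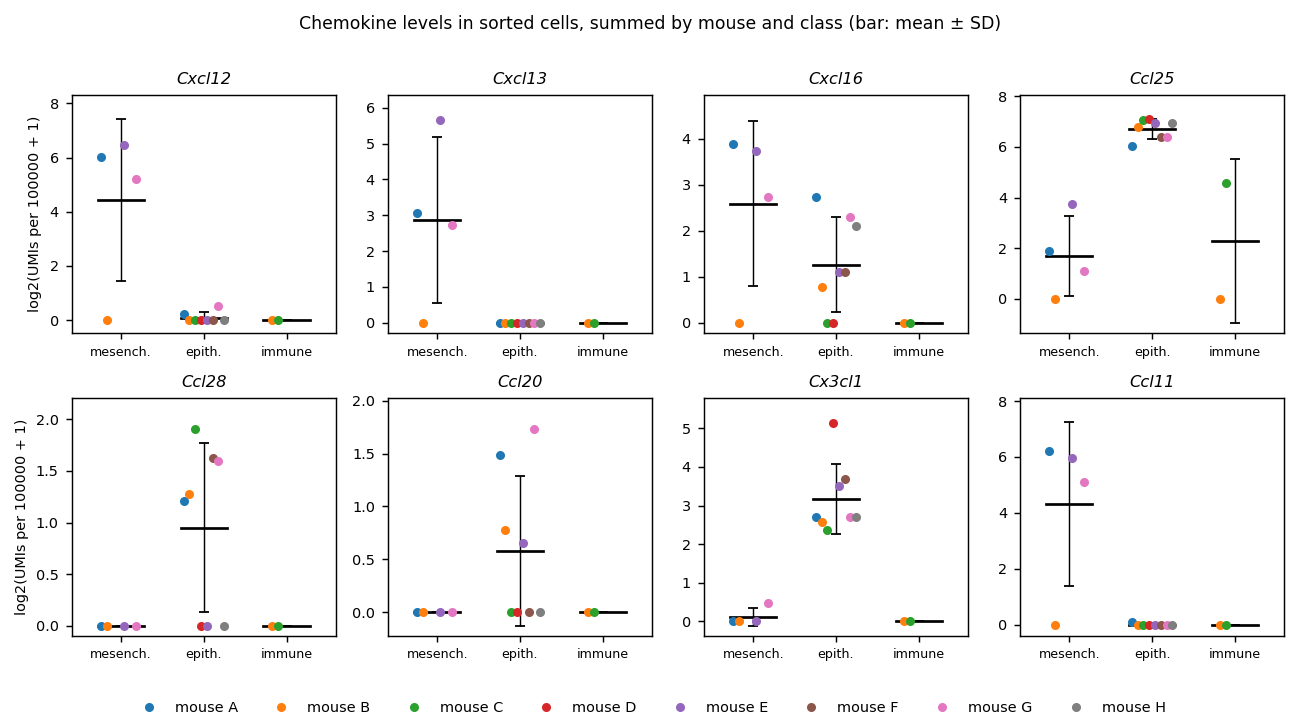
Summed level of each chemokine on a log2 axis, as log2(UMIs per 100000 + 1), for each mouse (points) in mesenchymal, epithelial and immune cells; bars are the mean ± SD over mice. *Cxcl12* and *Ccl11* are high in the mesenchymal cells of mice A, E and G, and *Ccl25* and *Cx3cl1* in the epithelial cells of all 8 mice.

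The immune cells were few, and few UMIs of these ligands were counted in them. In 37 cells the 8 members summed to 4 UMIs, all *Ccl25* in 1 cell of mouse C, and the upper limit for each of the others, at 0 of 37 cells, is 8.11%. In this class 3 UMIs stand for 7.74 UMIs per 100000. That is above the pooled mesenchymal level of *Cxcl13* and the pooled epithelial levels of *Cx3cl1*, *Cxcl16*, *Ccl28* and *Ccl20*, so their zeros alone do not show a lower level. Against an immune level of 3 UMIs, the mesenchymal level was at least 5.74-fold higher for *Cxcl12* and 5.77-fold for *Ccl11*, and both were called (adjusted p = 0.000264 and 0.000267), beside 11.6% of all genes (9.5% higher and 2.1% lower), whose median difference was 0.93. These calls rested on 2 mice with immune cells: both were lost with the mouse as a block (adjusted p = 1) and without mouse C (0.0736), and that of *Ccl11* with DESeq2 (0.269). *Ccl25* was higher in epithelial than in immune cells by 4.40 on the log2 scale (SE 1.04, adjusted p = 0.000551, and 0.109 without mouse B), beside 30.9% of all genes (25.6% higher and 5.27% lower), whose median difference was 1.26. *Cx3cl1* passed in the same comparison (adjusted p = 0.0183) but not with the mouse as a block (0.135), without TMM scaling (0.122), with DESeq2 (0.0574), or without mouse B (0.191) or mouse C (0.132).

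The 778 cells without a defining gene held *Ccl25* in 35.6%, at 73.7 UMIs per 100000, close to the epithelial level of 82.0. In the same cells the epithelial markers summed to 1116, the immune markers to 92.3 and the mesenchymal markers to 13.9 UMIs per 100000. The immune markers had 868 UMIs there, against 264 in the immune class, so cells with immune markers also lay outside that class. *Cxcl12* was in 1.54% and *Cxcl13* in 0 of the 778 cells.

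The receptors of these ligands were sparse and did not share one class. *Ackr3*, the atypical CXCL12 receptor that takes up the ligand, was in 35 of 317 mesenchymal cells and 0 of 1187 epithelial cells, with a level at least 121-fold higher (adjusted p = 2.04e-14). *Ackr4*, an atypical receptor that binds CCL25, had 163 UMIs in 68 mesenchymal cells and was higher there than in epithelial cells by 8.21 on the log2 scale (SE 0.73, adjusted p = 7.89e-28). *Ccr9*, the CCL25 receptor, was in 7 of 37 immune cells (18.9%) with 14 UMIs, against 2 UMIs in epithelial and 0 in mesenchymal cells (adjusted p = 2.42e-11 for epithelial against immune). The immune side of this call rests on 15 cells of mouse B and 19 of mouse C, beside 30.9% of all genes called. Its alternatives were not examined. *Cxcr6* had 3 UMIs in 2 immune cells, *Cx3cr1* had 19 in epithelial, 4 in mesenchymal and 2 in immune cells, and *Cxcr4*, *Cxcr5*, *Ccr10* and *Ccr6* had 0 in all 3 classes. *Ccr3* was not analysed here in single cells.

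Among 22 other chemokine ligands in the table, those with the most UMIs were in mesenchymal cells *Ccl2* (36 UMIs), *Cxcl9* (16), *Ccl7* (8), *Cxcl10* (6) and *Cxcl14* (5), in epithelial cells *Ccl6* (146), *Ccl5* (111), *Cxcl11* (21), *Ccl24* (20) and *Cxcl10* (14), and in immune cells *Ccl5* (676) and *Xcl1* (7). The 8 members thus held 413 ligand UMIs in mesenchymal cells against 85 for the other ligands, 2886 against 350 in epithelial cells, and 4 against 685 in immune cells. Of the 2 other ligands tested between mesenchymal and epithelial cells, *Ccl6* was lower in mesenchymal cells (adjusted p = 0.000259) and *Ccl5* was not called (0.200).

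Within the mesenchymal class the stromal ligands were unevenly spread. Cells were grouped by whichever of 4 short marker lists, named after the study's subtypes, had the most UMIs. These groups are not the study's clusters, and their position in the tissue was not tested. The crypt telocyte list (*C3*, *C4b*, *Fzd1*, *Grem1*) led 133 cells and the villus tip telocyte list (*Igfbp6*, *Ly6c1*, *Tppp3*, *Pi16*) 61. The myofibroblast list (*Ednrb*, *Emid1*, *Pdlim1*, *Acta2*) led 50 and the enteric mesothelial fibroblast list (*Ptn*, *Kcnn3*, *Slc12a2*, *Rgs5*) 36, with 37 cells tied or without a UMI. No test was made, since nearly all these cells came from mice A and G, and the lists were spread unevenly over them. Mouse A gave 45 of the 50 myofibroblast list cells. Mouse G gave 97 of the 133 crypt and 49 of the 61 villus tip telocyte list cells. The shares below are pooled over mice, so list and mouse cannot be told apart in them. *Cxcl12* was in 43 crypt telocyte list cells (32.3%, 24.5 to 41.0), 15 myofibroblast list cells (30%, 17.9 to 44.6) and 14 mesothelial list cells (38.9%, 23.1 to 56.5), but in 1 of 61 villus tip telocyte list cells (1.64%, 0.0415 to 8.80). The median depth of that last group, 1251 UMIs, was the highest of the 4.

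*Ccl11* did not share this gap. It was in 19 villus tip telocyte list cells (31.1%, 19.9 to 44.3), 32 crypt telocyte list cells (24.1%, 17.1 to 32.2), 22 myofibroblast list cells (44%, 30.0 to 58.7) and 4 mesothelial list cells (11.1%, 3.11 to 26.1). In mouse G, with 49 villus tip telocyte list cells, *Cxcl12* was at 1.30 and *Ccl11* at 38.9 UMIs per 100000, against 47.0 and 28.9 in 97 crypt telocyte list cells of the same mouse. In mouse A, with 10 and 25 such cells, *Cxcl12* was at 0 and 116 and *Ccl11* at 8.97 and 59.9. The 45 myofibroblast list cells of mouse A had *Cxcl12* at 48.5 and *Ccl11* at 103. Mesothelial list cells had *Cxcl12* at 41.9 in mouse A and 111 in mouse G, and *Ccl11* at 14.0 and 14.5. *Cxcl13* was in 11 crypt telocyte list cells (8.27%), 2 mesothelial list cells (5.56%) and 0 of the 61 and 50 others, with upper limits of 4.92% and 6%. *Cxcl16* lay between 2.78% and 8.20% in all 4 groups, with overlapping intervals.

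**Figure D2:**
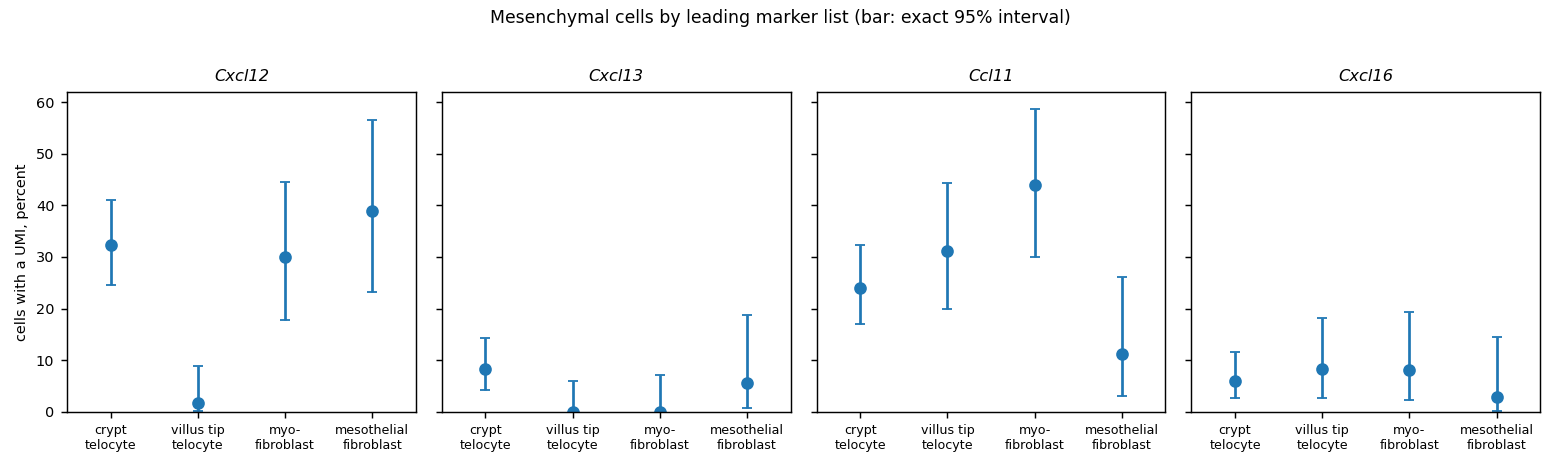
Percent of mesenchymal cells with a UMI of each stromal ligand, by the marker list that led the cell; points are shares of cells pooled over mice and bars exact 95% binomial intervals. *Cxcl12* is at 1.64% in villus tip telocyte list cells and at 30% or more in the other 3 groups, while *Ccl11* is at 31.1% in the villus tip group.

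Epithelial cells were placed along the axis by marker lists as well: 182 cells led by the crypt list (median 3160.5 UMIs), 540 by the villus bottom list (2175.5) and 465 by the villus tip list (1613), of which 26, 66 and 59 lay near the cut between lists. *Ccl25* peaked in the villus bottom list cells. Its lowest, median and highest levels over mice were 44.4, 104 and 208 UMIs per 100000 in the crypt group (6 mice), 96.0, 131 and 314 in the villus bottom group (7 mice) and 23.8, 68.9 and 93.8 in the villus tip group (8 mice). The highest tip value lay just below the lowest villus bottom value, so these groups did not overlap, and the tip was lower in 7 of 7 mice with both groups. The share of cells with *Ccl25* was 64.8%, 75.4% and 36.1%, and 21.5%, 34.6% and 12.7% with each cell thinned to 400 UMIs.

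The fitted difference in *Ccl25* between tip and villus bottom groups was −0.81 on the log2 scale (SE 0.31, adjusted p = 0.0455, edgeR), beside 31.8% of 1161 genes called, 19.3% lower, and −0.86 with the mouse as a block (adjusted p = 0.00484). The call lies near the threshold: it was lost without mouse A (adjusted p = 0.0663), D (0.060), E (0.0587), G (0.103) or H (0.108), and without the doublet gate plates (0.168). Tip against crypt was −0.43 (SE 0.32, adjusted p = 0.289), lower in 5 of 6 mice, beside 43.2% called. The comparison with the villus bottom group was added after the levels had been seen.

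The other epithelial members were too sparse for the filter. *Cxcl16*, which has a soluble and a membrane form, was in 0.549% of crypt, 5.37% of villus bottom and 11.6% of villus tip list cells, the reverse of the depth order. Its tip level of 7.42 UMIs per 100000 was above the crypt level of 0.156 (1 UMI) by a ratio of 47.5 (8.26 to 1902) and was higher in 4 of 6 mice and equal at 0 in the other 2. Without a filter tip against crypt passed (adjusted p = 6.14e-05, edgeR) and tip against villus bottom did not (0.187), in fits that called more genes in all than the filtered ones. Of the 72 tip UMIs, 48 were from mouse A, at 12.3 UMIs per 100000, with 16 from mouse G at 6.14.

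*Ccl28* had the same order of levels as *Ccl25*, highest in the villus bottom group and lowest at the tip. It was in 6 crypt (3.30%), 27 villus bottom (5%) and 0 of 465 villus tip list cells, an upper limit of 0.645%. The villus bottom level was at least 8.96-fold higher than a tip level of 3 UMIs, and the tip was lower in 5 of 7 mice and equal at 0 in 2. The fit without a filter, which called more genes in all than the filtered one, gave an adjusted p of 0.00107 (edgeR). *Ccl20* was in 4.40%, 3.52% and 1.29% of cells, with levels of 1.41, 1.78 and 0.618 UMIs per 100000 and 6 tip UMIs, and the same fit did not call it (adjusted p = 0.497 against the villus bottom). *Cx3cl1* was in 14.3%, 15% and 9.89% of cells, but its levels of 5.47, 7.39 and 7.21 UMIs per 100000 had overlapping counting intervals (adjusted p = 0.609 against the villus bottom). Detection in 119 cells of both *Ccl25* and *Cx3cl1* exceeded the 89.3 for independent detection, and that of *Ccl25* and *Cxcl16* in 46 cells was near 49.0, both across cells of unequal depth.

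**Figure D3:**
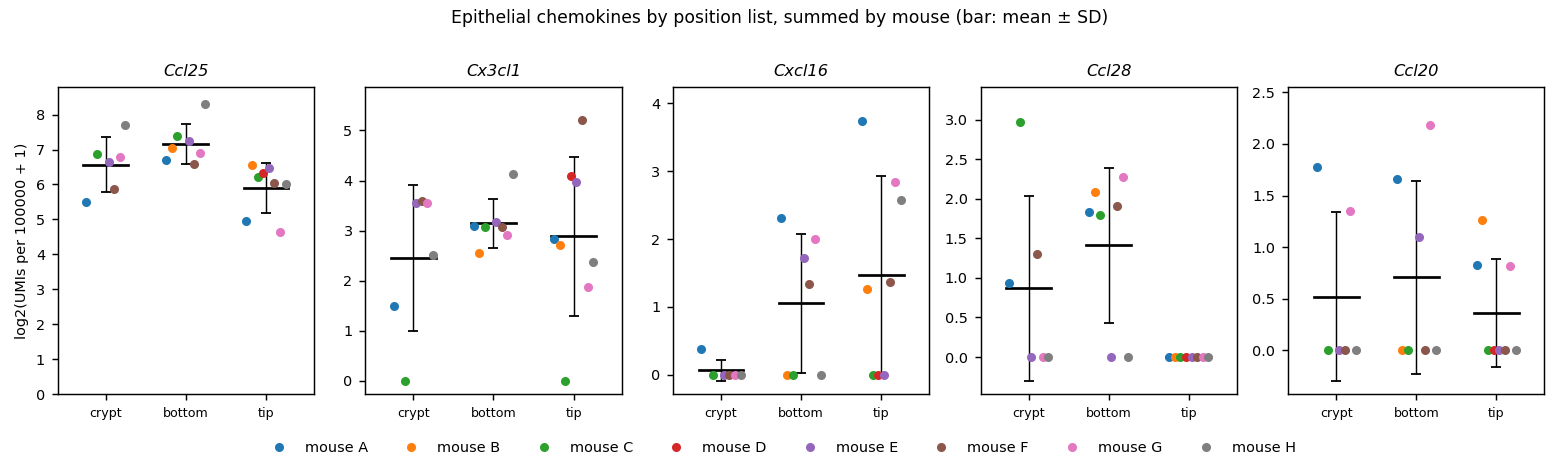
Summed level of the 5 epithelial chemokines on a log2 axis, as log2(UMIs per 100000 + 1), for each mouse (points) in epithelial cells led by the crypt, villus bottom or villus tip list; bars are the mean ± SD over mice. *Ccl25* is lowest at the tip, *Ccl28* is at 0 there in all 8 mice, and in mice A, G and H *Cxcl16* is higher at the tip than in the other groups.

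In the microdissected stroma, values are ppm, the deposited TPM (a length-corrected share of transcripts) rescaled to a sum of 1000000 after enterocyte genes and genes over 1% of a sample were left out of the total. Sections were averaged per mouse. In such bulk samples fewer cells of a type and less RNA per cell cannot be told apart. *Ccl25* was the most abundant member in all 4 zones by mean over mice, at 455 ppm in the crypt, 675 in the villus bottom, 569 in the center and 463 in the tip, and it is itself one of the 420 enterocyte genes by rule. Genes of enterocytes made up 4.97% to 44.7% of the TPM of a sample, and the epithelial markers summed to 1147 to 29815 ppm in the tip samples. The part of this epithelial RNA in the levels of *Ccl25*, *Cx3cl1*, *Ccl28* and *Ccl20* was not tested.

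*Ccl11*, the eosinophil attractant, was low at the villus tip and in the center. Its medians there were 0.130 and 2.24 ppm, against 17.6 in the villus bottom, and tip against center was not tested. It was at 0.821, 0, 0.130, 0 and 16.5 ppm in the tip of mice 1 to 5, at 464, 28.2, 16.9, 4.63 and 17.6 in the villus bottom, at 1.30, 2.44, 18.5, 0 and 2.24 in the center and at 9.45, 68.8 and 64.9 in the crypt of mice 1 to 3. The tip sections with a value of 0 had 10376 and 5481 genes above 0 in mouse 2, and 17306 in mouse 4. These include the lowest and the highest gene count of all samples, and the part of gene count in the zeros was not tested. The villus bottom value of mouse 1 averages 2 sections, and the highest single section of all was at 922 ppm. The tip was lower than the villus bottom in 5 of 5 mice and than the crypt in 3 of 3, although mouse 5 had nearly the same value in both villus zones. In single cells *Ccl11* was in 31.1% of the villus tip telocyte list cells, a group not placed by position. With log2 values averaged over sections, tip against villus bottom was −2.90 on the log2 scale, against the main fit given next. The fitted difference on the log2(ppm + 1) scale was −3.89 for tip against villus bottom (SE 1.08, unadjusted p = 0.00226, adjusted p = 0.409, limma with the mouse as a block; −2.86 without mouse 1 and −4.84 without mouse 5) and −3.82 for tip against crypt (SE 1.29, unadjusted p = 0.00913, adjusted p = 0.9998).

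*Cxcl12* was also low at the tip, at 0.173, 22.1, 10.5, 2.99 and 0.955 ppm in mice 1 to 5. It was at 5.21, 20.4, 48.4, 23.5 and 70.0 in the villus bottom, and at 4.00, 62.9 and 76.2 in the crypt of mice 1 to 3. The center held both the lowest value outside the tip, 0.522 in mouse 2, and the highest of all, 280 in mouse 4. Tip and villus bottom overlapped: the tip was lower in 4 of 5 mice, by −2.44 on the log2 scale in the fit (SE 1.09, unadjusted p = 0.0395, adjusted p = 0.611; −1.75 without mouse 5 and −3.08 without mouse 2), and lower than the crypt in 3 of 3 (−3.09, SE 1.31, unadjusted p = 0.0313). The 7 mesenchymal markers summed to a median of 86.3 ppm in the tip (75.9 to 480), 164 in the villus bottom (82.1 to 340) and 443 in the crypt (165 to 694), and their part in both differences was not tested.

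No member was called in these zones, and neither was any other gene: 0 of 13910 genes, a background of 0%, passed an adjusted p of 0.05 with limma in tip against crypt or in tip against villus bottom, with 446 and 1103 at an unadjusted p under 0.05. In this design even changes of 4-fold are seldom called, so a lack of calls does not show that levels were alike between zones. The median difference over the 7 members tested was −1.26 for tip against villus bottom, beside −0.08 over all genes, and −0.04 for tip against crypt, beside −0.03.

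Among the remaining members, *Ccl25* and *Cxcl16* were also lower at the tip than in the villus bottom in 4 of 5 mice. *Ccl28*, *Ccl20* and *Cx3cl1* were higher at the tip in 3 of 5. *Ccl25* was at 963, 487, 336, 10.9 and 520.3 ppm in the tip and 1311, 641, 694, 419 and 309.9 in the villus bottom of mice 1 to 5, lower in 4 of 5 mice (−1.26, SE 1.01, unadjusted p = 0.229), with mouse 4 far below the others at the tip and listed at 0 in the center. *Cxcl16* was at 122, 11.2, 50.5, 1.53 and 74.6 in the tip and 32.5, 78.5, 95.4, 140 and 101 in the villus bottom (−1.59, SE 0.95, unadjusted p = 0.111). *Ccl28* and *Cx3cl1* lay between 0.841 and 63.9 ppm and between 0 and 46.4 ppm over all mice and zones, with overlapping zones. *Ccl20* was uneven between mice and between zones of a mouse. It was between 59.5 and 189 ppm in the 4 zones of mouse 1. In mouse 5 it was at 278 ppm in the center, 0 in the villus bottom and 8.10 in the tip, and it was at most 19.2 ppm in the other mice. The highest single section was at 375 ppm, above every mouse value, so sections averaged together could differ widely.

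*Cxcl13* was above 0 in 9 of 29 sections, with its highest mouse value, 8.78 ppm, in the tip of mouse 3. By correlation of log2(ppm + 1) over the 29 sections, a description in which sections of a mouse are not independent, the gene most like *Cxcl12* was *Spon2* (Pearson's r = 0.73), then *Anxa6* (0.71) and *Zfp462* (0.68). Those most like *Ccl25* were *Gsto1* (0.86), *S100a10* (0.86) and *Bpnt1* (0.84), and those most like *Cx3cl1* were *Rassf7* (0.82), *Bst1* (0.82) and *Cyp4v3* (0.81). *Cxcl16* was led by *Sft2d2* (0.83), *Mbd2* (0.82) and *Prpf8* (0.80), *Ccl28* by *Fbxl5* (0.73), *Tmem268* (0.66) and *C1galt1c1* (0.65), *Ccl20* by *Capn9* (0.68), *Acat1* (0.68) and *Apoo* (0.67), and *Ccl11* by *Pgghg* (0.71), *Zfp942* (0.71) and *Casp12* (0.70).

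Several receptors were lower at the tip than in the villus bottom by the unadjusted p, and none by the adjusted p. *Ccr10*, the CCL28 receptor of plasma cells, had medians of 0.275 ppm in the tip and 20.3 in the villus bottom and was lower in 5 of 5 mice (−2.84, SE 0.81, unadjusted p = 0.0028, adjusted p = 0.410). *Ccr9* (−1.74, unadjusted p = 0.0481) and *Cx3cr1* (−1.85, 0.0397) were lower in 5 of 5 mice, and *Ackr3* (−1.77, 0.0243) and *Cxcr6* (−1.68, 0.0249) in 4 of 5. *Ackr4* stood the other way (2.24, unadjusted p = 0.034). *Cxcr4* and *Cxcr5* differed by 0.08 and 0.07, and *Ccr3* was listed below 10 ppm throughout. The B lineage markers moved the same way, with a median sum of 182548 ppm in the villus bottom (83507 to 271623), 10642 in the tip (363 to 47151) and 39139 in the crypt, and so did the immune markers, with a median of 944 ppm in the villus bottom (299.99 to 1749) and 239 in the tip (129 to 609.9). The part of either list in the receptor differences was not tested. Of 19 other ligands 0 were called in either comparison, where *Ccl5* (314 ppm over zones), *Ccl6* (202), *Ccl21a* (56.3), *Cxcl10* (34.8) and *Ccl24* (33.0) had the highest means.

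**Figure D4:**
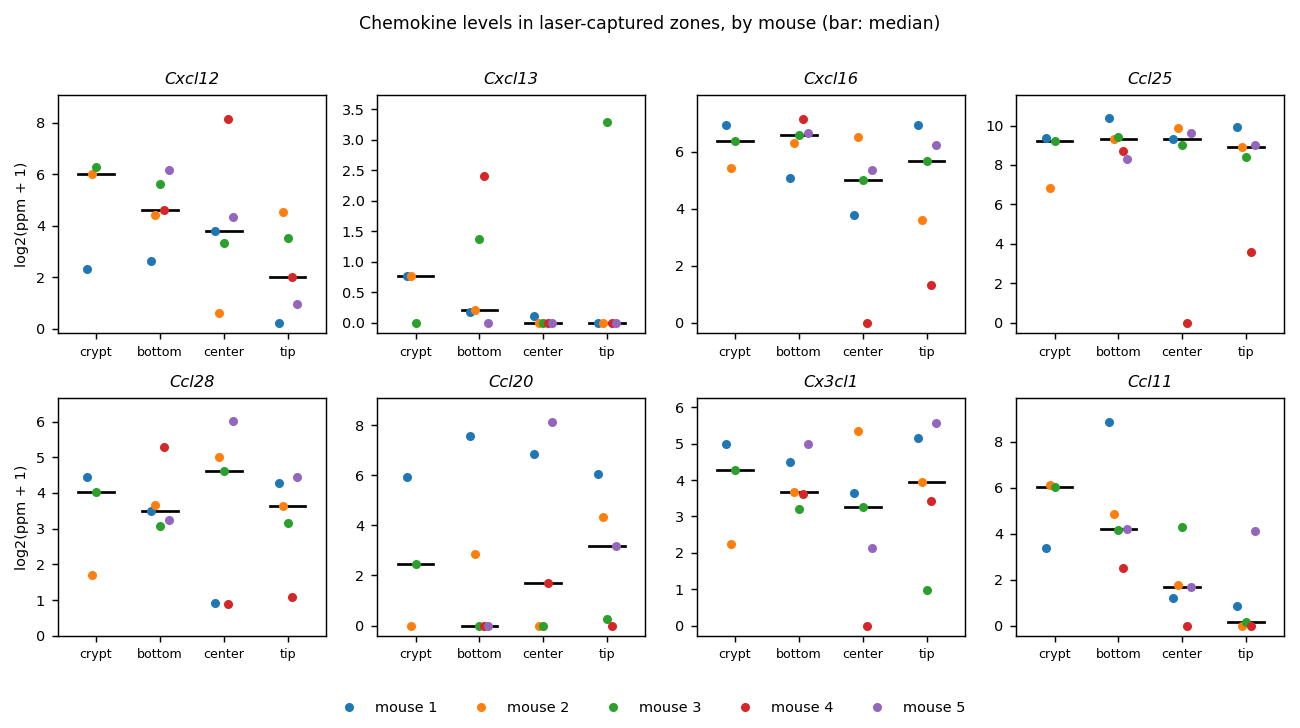
Level of each chemokine on a log2 axis, as log2(ppm + 1), for each mouse (points) in the 4 LCM zones; bars are medians over 3 mice in the crypt and 5 in each villus zone. The medians of *Ccl11* and *Cxcl12* are lowest at the villus tip, and that of *Ccl11* is also low in the center. *Ccl25* stays between 309.9 and 1311 ppm in the villus zones of mice 1, 2, 3 and 5.

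In the epithelium 48 h after DT, no chemokine that could be tested was called. *Ccl25* was at 687, 522, 776 and 756 CPM (UMIs scaled to a total of 1000000 per sample) in control samples 1 to 4 and 634, 663, 736 and 657 in DT samples 1 to 4. The DT values lay within the range of the controls, and the fitted difference was −0.08 on the log2 scale (SE 0.20, interval −0.51 to 0.36, adjusted p = 0.870, edgeR with batch as a term). *Cx3cl1* was at 71.2, 37.4, 47.5 and 39.3 in control and 50.6, 35.8, 39.0 and 35.7 in DT samples (−0.34, interval −0.80 to 0.11, adjusted p = 0.399), lower in 4 of 4 pairs of the same number.

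*Cxcl16* was at 22.1, 33.4, 29.9 and 30.1 CPM in control and 20.2, 40.1, 22.0 and 54.6 in DT samples, with the DT samples on both sides of the controls (0.22, interval −0.44 to 0.88, adjusted p = 0.725). *Ccl28* was at 11.7, 14.7, 23.8 and 25.0 in control and 9.27, 25.1, 19.9 and 28.6 in DT samples (0.12, interval −0.49 to 0.74, adjusted p = 0.851). Thus 0 of 4 members tested were called with edgeR, 0 of them at an unadjusted p under 0.05, beside 0.356% of 8986 genes, 0.0223% higher and 0.334% lower. The epithelial markers summed to 10737 to 17942 CPM in control and 11796 to 17851 in DT samples.

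*Ccl20* was lower after DT in counts that miss the study's filter of 1e-05 of the UMIs in at least 2 samples. It was at 24.2, 9.35, 9.03 and 2.96 CPM (35, 7, 38 and 11 UMIs) in control and 1.69, 5.32, 2.65 and 1.32 CPM (2, 11, 10 and 3 UMIs) in DT samples. Of the DT samples, 3 lay below every control, and DT 2 lay above control 4. The exact permutation test over samples gave p = 0.0571 (two-sided). Within pairs of the same number it was lower after DT in 4 of 4, for which the exact sign-flip test gave p = 0.125 (two-sided), the smallest that 4 pairs allow. The labels do not state that samples of the same number are paired. A fit without a filter gave −1.88 (SE 0.39, adjusted p = 0.000146, edgeR, with 635 of 15502 genes called), but the adjusted p was 0.154 with edgeR's own filter, 0.0706 with DESeq2, 0.0597 with the replicate number as a block, 0.835 without the batch term and 0.0742 without control 1. Within batch a the difference was −2.23 (adjusted p = 0.0311) and within batch b −1.49 (0.200). The immune markers summed to 123 to 477 CPM in control and 49.3 to 266 in DT samples, and their part in this difference was not tested.

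The stromal members were near absent from the epithelium samples, with 4 UMIs of *Cxcl12*, 10 of *Cxcl13* and 3 of *Ccl11* over the 4 control samples and 1 UMI of each over the 4 DT samples. All 10 control UMIs of *Cxcl13* were in control 3, the deepest sample, which also held 45 UMIs of the B cell gene *Ms4a1* where the 7 others had 0. The mesenchymal markers summed to 10.4 to 18.8 CPM in control and 2.90 to 22.7 in DT samples and the stromal members had too few UMIs to compare. *Cx3cr1* was the receptor past the filter, between 13.5 and 18.1 CPM in the 4 DT samples and at 16.1 CPM or more in the 4 control samples, so that the groups overlapped (−0.23, adjusted p = 0.566, edgeR). Among the 4 other ligands tested, *Ccl9* differed by 0.93 (SE 0.20, unadjusted p = 0.000684, adjusted p = 0.0907), *Ccl6* by −0.67 (adjusted p = 0.253), *Ccl24* by −1.46 (0.329) and *Ccl5* by −0.30 (0.738), none of them called.

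**Figure D5:**
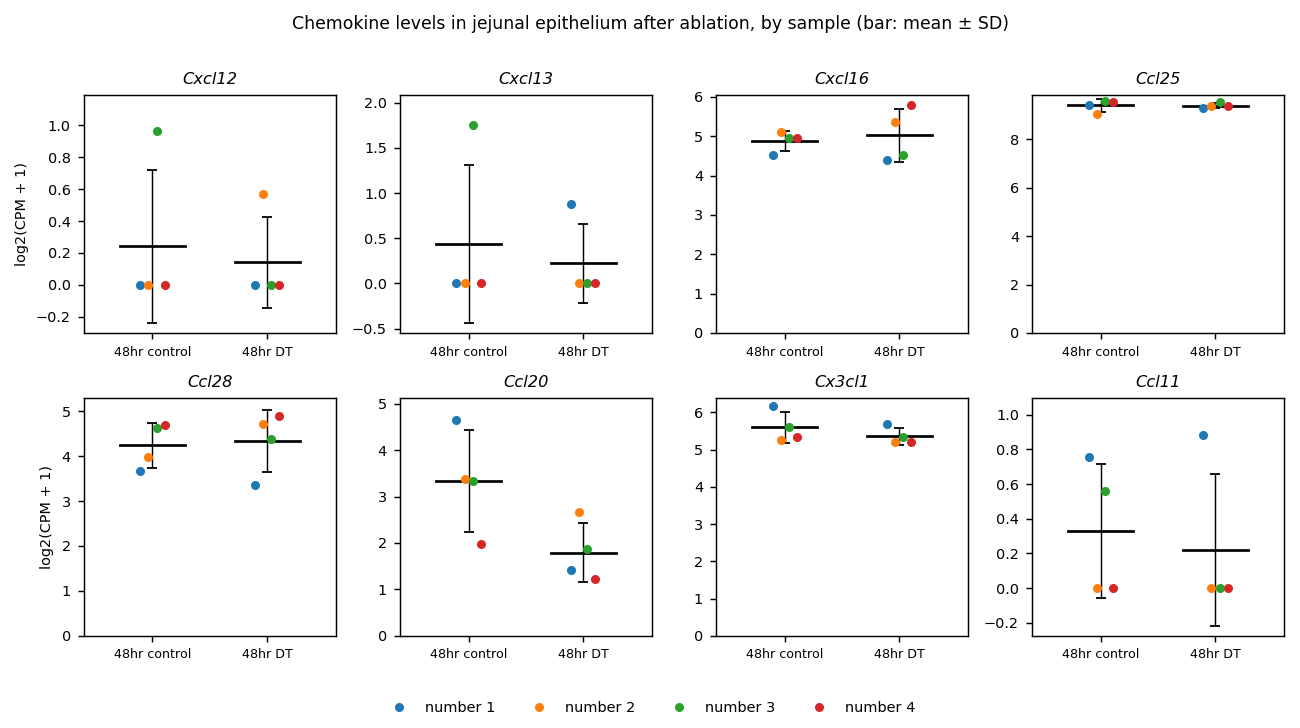
Level of each chemokine on a log2 axis, as log2(CPM + 1), in the 4 control and 4 DT epithelium samples (points, coloured by sample number); bars are the mean ± SD. *Ccl25* lies between 522 and 776 CPM in all 8 samples, and 3 of 4 DT samples lie below every control for *Ccl20*.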

How the data were processed

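LCM stroma, sorted single cells and jejunal epithelium were analysed from the deposited tables. For the LCM samples the authors aligned SMARTseq reads to GRCm38 transcripts with kallisto and deposited TPM per gene, which keeps no depth. For the single cells (MARS-seq) and the epithelium (mcSCRBseq) the authors deposited UMI counts per gene made with zUMIs on GRCm38. The submitters' processing notes also name bcl2fastq 2.15.0.4. The members and lists were chosen with earlier results of these data known.

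The study left out of the LCM total a much shorter list of enterocyte genes, chosen from another dataset that was not used here. Its rule was applied instead to the control epithelium, which changes the total behind each ppm value: 487 genes made 50% of its UMIs, of which 420 were not ribosomal or mitochondrial and 378 were in the LCM table. Sections were averaged per mouse, and log2(ppm + 1) was tested with limma 3.58.1 and the mouse as a block, over 13910 genes with a zone mean above 5 ppm. A fold change on this scale understates the change of low genes. Cells were summed per mouse and class, with at least 5 cells a sum, and tested with edgeR 4.0.16 (quasi-likelihood, TMM, filterByExpr). No empty-well background was subtracted and no doublet caller was run; plates of doublet gates were kept, and 1664 cells remain without them. The 352 wells of a plate matching no sample were not used. No well name was shared between libraries. The epithelium was tested with edgeR, batch as a term (samples 1 and 2 against 3 and 4, from the study's sample list), after a filter of 1e-05 of the UMIs in at least 2 samples. Adjusted p-values are Benjamini-Hochberg over all genes tested, at 0.05. DESeq2 1.42.0 in R 4.3.3 was an alternative. Each test was tested on simulated data with 4-fold changes: those of mesenchymal against epithelial cells, position and epithelium recovered most of them, the immune comparisons a minority and the LCM test almost none. The simulated counts had a fixed spread between samples, not one estimated from these data, and no mouse or batch effect. Recovery in the real counts may therefore be lower.

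Named genes were the 8 members, their receptors, and the 3 genes most like each member above 0 in at least 15 LCM samples; other ligands were named by UMIs or mean level. LCM zones and cells pair by mouse. Same-numbered epithelium samples deviated together (correlations 0.608, 0.413, 0.656 and 0.584). Batch was not removed from these correlations and samples of unlike number were not compared, so they do not show a pairing by number. The fit blocked by number is an alternative. Depth was 748458 to 4210158 UMIs per epithelium sample and a median of 1359 per cell.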

Additional observations from a re-analysis of the deposited data

Results flagged for a closer look

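Within groups of 4 to 10 samples, 14 of 53 groups had a sample set far from the others. The chance figure of about 2.65 does not hold for groups mostly at 0, so no excess is read from it. Several of these samples rest on a single UMI or on a group otherwise at 0. In the LCM zones these were *Cxcl13* in the villus center of mouse 1 (0.0845 ppm) and the villus tip of mouse 3 (8.78 ppm), *Ccl11* in the tip of mouse 5 (16.5 ppm) and *Ccl28* in the villus bottom of mouse 4 (37.7 ppm). Mouse 4 also stood low for *Ccl25*, listed at 0 in the villus center and at 10.9 ppm in the tip. In the epithelium samples they were *Cxcl12* in control 3 (0.95 CPM) and DT 2 (0.483 CPM), *Cxcl13* in control 3 (2.38 CPM) and DT 1 (0.843 CPM), and *Ccl11* in DT 1 (0.843 CPM). In single cells they were *Cxcl12* in epithelial cells of mouse G (0.434 UMIs per 100000), *Ccl11* in epithelial cells of mouse A (0.0816) and *Cx3cl1* in mesenchymal cells of mouse G (0.377).

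*Ccl25* was found in 35.6% of the cells with no defining gene, which enter no comparison between classes.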

How the results depend on the processing

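In the LCM zones 153 of 168 alternatives kept the direction and the side of the threshold and 15 turned the direction, none of a called value. In tip against crypt, without the mouse block *Ccl25* was −0.51, *Ccl20* −0.036 and *Cx3cl1* −0.018, and with log2 values averaged over sections *Ccl20* was −0.36 and *Cx3cl1* −0.18. Leaving out each mouse gave −0.13 to 1.31 for *Ccl25*, −1.19 to 1.65 for *Ccl20*, −0.76 to 1.45 for *Cx3cl1* and −1.11 to 0.41 for *Ccl28*, and in tip against villus bottom −0.40 to 0.32 for *Cx3cl1*, −0.83 to 0.52 for *Ccl28*, −4.84 to −2.86 for *Ccl11* and −3.08 to −1.75 for *Cxcl12*. With pseudocounts of 0.1 and 5 ppm *Ccl11* was −5.80 and −2.44 and *Cxcl12* −3.07 and −1.63, and with TPM as deposited −3.21 and −2.08; over all alternatives their adjusted p was 0.296 to 0.988, so neither was called. The number of genes called in tip against crypt was 1 without a filter and 0 to 0 without each mouse, and in tip against villus bottom 0 to 4, the 4 without mouse 4.

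In the cell classes 183 of 202 alternatives kept the direction and the side of the threshold, or a count within 1.5 times, though values could move: *Ccl25* in epithelial against immune cells was 11.1 without mouse C. Genes called between mesenchymal and epithelial cells rose from 2530 to 4965 without a filter and were 1336 to 3276 without each mouse (1336 without mouse G). Between mesenchymal and immune cells 508 became 162 with DESeq2, 305 without plates of doublet gates, 8 with the mouse as a block and 74 to 488 without each mouse (mouse B 151, C 74, D 333, G 242). Between epithelial and immune cells 1354 became 621 with the block and 152 to 1410 without each mouse (B 152, C 249, H 889). *Ccl25* in mesenchymal against immune cells was 1.40 with cells of more than 1 class put in each, and −2.29 to 4.97 without each mouse (4.97 without mouse C). *Cxcl12* in epithelial against immune cells was −1.43 with DESeq2 and −1.82 with the block. Fits of *Ccl11* in epithelial against immune and of *Cx3cl1* in mesenchymal against immune cells were left out, since both groups held at most 3 UMIs.

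By epithelial position, tip against crypt called 501 genes, 1744 without a filter and 345 to 549 without each mouse; tip against villus bottom called 369, 601 without a filter, 234 without plates of doublet gates and 209 to 421 without each mouse (209 without mouse G). The *Ccl25* call was also lost with limits of 200 UMIs and 100 genes (adjusted p = 0.0622) and without a filter (0.0813). This contrast, the fits and the paired test of *Ccl20* and those without CD45Singlets plates were chosen after seeing the data.

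In the epithelium 32 genes called became 159 with DESeq2, 635 without a filter, 1 without the batch term, 3 with the replicate number as a block, 0 in batch a, 5 in batch b and 3 to 41 without each sample (control 1 3, control 2 21, control 3 10, control 4 11, DT 2 7, DT 3 9). *Ccl25* was 0.00695 in batch a and *Ccl28* −0.066 in batch b; without each sample *Ccl28* was −0.14 to 0.30, *Cxcl16* −0.14 to 0.47 and *Ccl20*, without a filter, −2.23 to −1.44. The block changed no call other than those named here and in the report. The cause of these changes was not tested. TPM gives no depth, the 37 immune cells limit every immune comparison, and *Ccl28*, *Ccl20* and *Cxcl13* rest on 27 to 45 UMIs in cells.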

Other observations

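Of the 317 mesenchymal cells 160 held a UMI of any of the 8 chemokines (50.5%), and of the 1187 epithelial cells 778 did (65.5%). *Ccl21a*, a lymphatic attractant of CCR7-bearing cells, was the other ligand with a tip difference of the size of *Ccl11* in the LCM stroma (tip against villus bottom −3.83, SE 1.08, unadjusted p = 0.00257, adjusted p = 0.409, limma).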
